A study of Mus musculus with 6 samples.

Results

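The interferon-stimulated genes described here were 47 genes chosen by symbol, with earlier results of these data known. Each was matched to its Ensembl identifier among the 52550 gene rows of the count table. All 47 were found and all 47 passed the filter of at least 10 counts in at least 3 libraries, which left 17621 genes to test. The study compared hippocampus RNA of male C57BL/6 J mice that had received an adeno-associated virus (AAV) into the CA1 areas of both sides at 8 weeks of age. The 3 control libraries, labelled wild type, came from mice given control shRNA. The 3 libraries labelled hnRNP DL KD, and elsewhere hnRNP DL-/-, came from mice given shRNA against L-DL. L-DL is the long isoform of the RNA-binding protein hnRNP DL. The L-DL virus carried 4 tandem shRNAs, each driven by an H1 promoter, in a vector whose CamkIIα promoter drives the green marker zsGreen. All 6 libraries thus came from mice that carried a virus, and no uninjected mice were among these samples. The control virus was given at the higher titre, so that the effect of the titre and that of the shRNA cannot be told apart. The labels give hippocampus as the tissue and do not mention that the injected area was cut out.

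Interferons are cytokines that cells release on sensing viral nucleic acid. Type I interferons bind the receptor Ifnar1/Ifnar2, whose kinases Tyk2 and Jak1 activate Stat2. With Irf9 it is part of a complex that binds the interferon-stimulated response element (ISRE) in target promoters. Interferon gamma, made mainly by T cells and natural killer cells, binds Ifngr1/Ifngr2 and acts on the gamma-activated site (GAS). In brain, microglia are known for strong responses to both, and neurons, astrocytes and endothelial cells respond as well. Some targets, such as the Ifit, Oas and Mx genes, are textbook type I genes, whereas the guanylate-binding proteins (GBP) and immunity-related GTPases (IRG) are induced most strongly by interferon gamma.

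Promoters are shown because the ISRE and the GAS are the elements through which the members are known to be switched on. RefSeq promoter windows of the build GRCm38.p6, from 250 bases before to 50 bases after a start, were matched to 37 of the 47 members, which have 45 windows. An ISRE core, written GAAANNGAAA and searched on both strands, lay in 21 of the 45 member windows (46.7%) and in 3.44% of all 32851 windows. A GAS core, written TTCNNNGAA, which reads the same on both strands, lay in 10 member windows (22.2%) and in 8.30% of all windows, and 6 member windows (13.3%) held both cores against 0.454% of all. The stretches below, from upstream of the start, show the ISRE core of 3 members from type I families and of 3 GTPase members. Capitals mark bases of an ISRE or GAS core, and each sequence runs 5′ to 3′ on the strand of its gene.
Ifit1, chr19:34640779-34640838, plus strand: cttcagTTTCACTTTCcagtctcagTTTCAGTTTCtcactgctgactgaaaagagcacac
Isg15, chr4:156200850-156200909, minus strand: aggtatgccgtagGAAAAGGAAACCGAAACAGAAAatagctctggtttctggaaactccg
Rsad2, chr12:26456538-26456597, minus strand: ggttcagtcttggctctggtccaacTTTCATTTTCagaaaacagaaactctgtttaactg
Gbp2, chr3:142620579-142620638, plus strand: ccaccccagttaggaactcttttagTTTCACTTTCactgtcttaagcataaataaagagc
Igtp, chr11:58199497-58199555, plus strand: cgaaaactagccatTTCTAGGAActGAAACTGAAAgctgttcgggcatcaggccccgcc
Irgm1, chr11:48871421-48871469, minus strand: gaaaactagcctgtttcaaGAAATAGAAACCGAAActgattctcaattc
The ISRE core was thus present on both sides of the later comparison. It appears as TTTC repeats in Ifit1, Rsad2 and Gbp2, which is the same core read from the other strand, and the Igtp stretch also holds a GAS core. An absent core says only that these letters were not in the window.

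Libraries held 16052529 to 17913064 counts, and p-values measure the spread between these 6 libraries, which may be technical, since the labels do not name the mice. For Hnrnpdl, the targeted gene, no fall was detectable at the gene level, with 177 ± 6.42 CPM in the controls and 180.1 ± 33.9 CPM in the L-DL KD-labelled libraries (SD, n = 3; log2 fold change 0.03 ± 0.12, adjusted p = 0.898). Counts per gene do not separate transcripts of L-DL from those of the short isoform, so they cannot show a loss of L-DL alone. The paper assessed the knockdown in hippocampus by immunoblotting of L-DL protein, which was not measured here. The group is called the L-DL KD-labelled libraries after its label. Microglial markers were higher in these libraries for 12 of 12 genes and neuronal markers lower for 11 of 12, while the libraries also differed in choroid plexus transcripts (31.7 to 5176 CPM summed over 6 genes) with no order between the groups. Defining markers of neurons (Snap25, Camk2a) and astrocytes (Gfap) were abundant in every library. In bulk tissue, fewer cells of a type and less RNA per cell cannot be told apart.

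Of the 47 members, 21 (44.7%) were higher in the L-DL KD-labelled libraries at an adjusted p under 0.05 in edgeR's quasi-likelihood test, against 15.6% of all 17621 tested genes called higher. No member was called lower, against 15.0% of all genes, and 26 members did not pass. At an unadjusted p under 0.05, 28 members were higher and 1, Ifi47, was lower. DESeq2 called Ifi47 lower, limma-voom called none lower, and edgeR with no filter on low counts called Igtp, Irgm1 and Ifi47 lower. The median log2 fold change of the members was 0.59, and that of all tested genes was 0.01. Values of all 3 L-DL KD-labelled libraries lay above all 3 controls for 19 members (40.4%), against 23.8% of all genes, and below them for 3 members (6.38%), against 23.4%. By role, the OAS family had the largest share called, 4 of 5, followed by the membrane proteins and galectins with 3 of 4 and the ISG15, ubiquitin and PARP genes with 4 of 7. The nucleic acid sensors had 2 of 4, the nucleotide enzymes 1 of 2, the RNA-binding effectors 2 of 6, the transcription factors 1 of 4 and the large GTPases 1 of 8. The remaining members had 3 of 7.

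**Figure D1:**
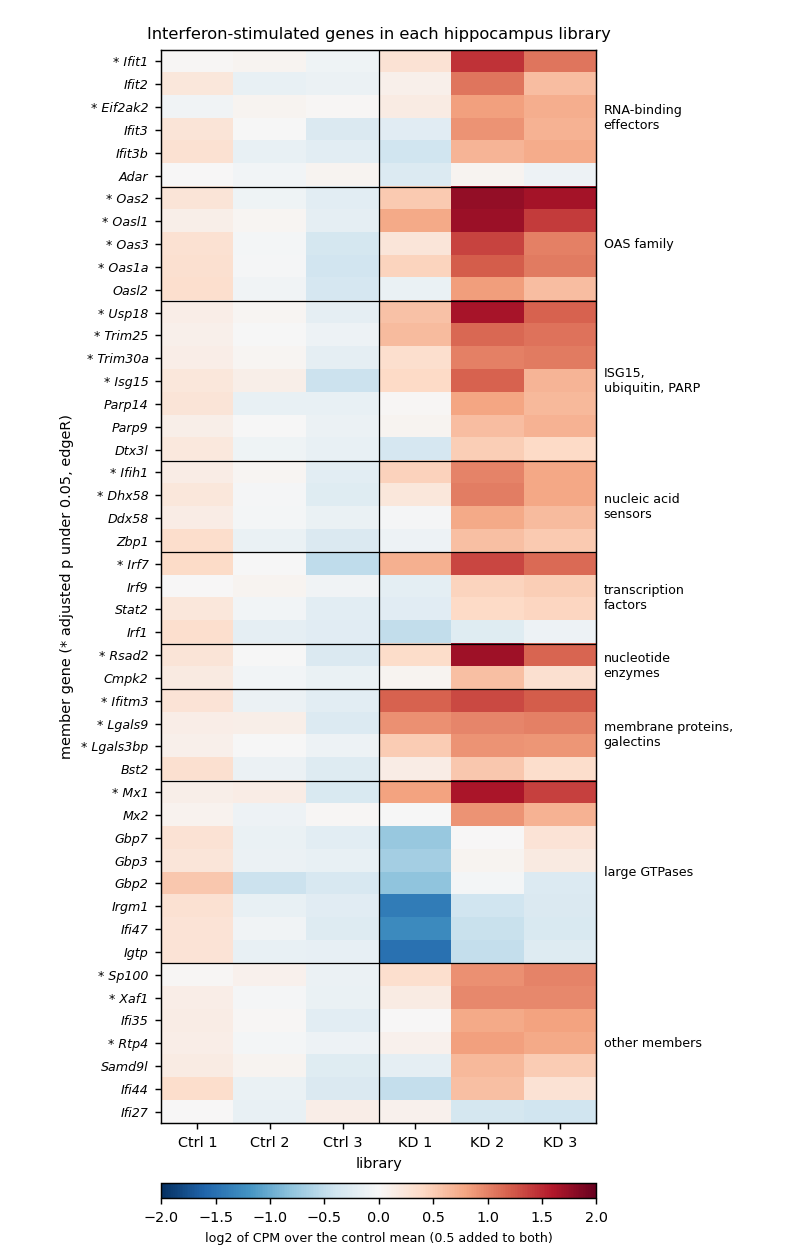
Level of each of the 47 members in each of the 6 libraries, as log2 of counts scaled to library size (CPM) over the control mean with 0.5 CPM added to both; genes are grouped by role, and an asterisk marks the 21 genes with an adjusted p under 0.05. Most genes were highest in L-DL KD replicates 2 and 3, L-DL KD replicate 1 lay close to the controls for many of them, and the lower block of large GTPases was lowest in L-DL KD replicate 1.

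The libraries of a group did not stand equally. L-DL KD replicate 1 had the lowest value of its group for 46 of the 47 members, and it lay below the highest control for 28 of them. Control replicate 1 had the highest value of the controls for 40 members and control replicate 3 the lowest for 41. L-DL KD replicates 2 and 3 both exceeded the highest control for 37 members. Without L-DL KD replicate 1 the number called higher was 37, and without control replicate 3 it was 11. It was 12 without control replicate 2 and 13 without L-DL KD replicate 2. The calls of 11 members held in all 12 alternative settings, namely Oas2, Oasl1, Usp18, Trim25, Ifih1, Irf7, Ifitm3, Lgals3bp, Lgals9, Mx1 and Sp100. Those of Dhx58, Eif2ak2, Isg15, Rtp4 and Xaf1 ended when any library but L-DL KD replicate 1 was left out. Those of Dhx58, Oas3 and Rtp4 also ended in limma-voom, and those of these 3 and Xaf1 with the replicate block. Ifit1 lost its call without any 1 of the controls (adjusted p from 0.0541 to 0.0684), Oas1a and Rsad2 without control replicate 2 or 3 or L-DL KD replicate 2, Oas3 without these or L-DL KD replicate 3, and Trim30a without control replicate 3. Among the 20 members with an ISRE core in a window, 10 were called higher (median log2 fold change 0.57, from -0.65 to 1.247), and among the 17 members with a window but no core, 6 were (median 0.50, from -0.62 to 1.40). Of all tested genes 15.6% were called higher, and whether the core goes with the call was not tested.

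The RNA-binding effectors act directly on foreign or double-stranded RNA. Below, values are in CPM (counts scaled to a common library size by edgeR's TMM method), in the order of replicates 1 to 3, and a log2 fold change is given ± its standard error. Ifit1 (ENSMUSG00000034459), which binds RNA lacking a fully methylated cap, was at 25.6, 26.2 and 23.6 CPM in the controls and 30.9, 69.3 and 53.5 CPM in the L-DL KD-labelled libraries (log2 fold change 1.03 ± 0.25, adjusted p = 0.0174). The groups did not overlap, but L-DL KD replicate 1 lay only just above the controls. Eif2ak2, which encodes the kinase PKR that halts translation on sensing double-stranded RNA, was at 32.5, 35.7 and 34.7 CPM in the controls against 38.6, 61.1 and 57.2 CPM (log2 fold change 0.61 ± 0.16, adjusted p = 0.0231). Again all 3 L-DL KD-labelled libraries were higher and the first was closest to the controls. Ifit2, Ifit3 and Ifit3b, neighbours of Ifit1 in a cluster at chr19:34550694-34650009 (GRCm38), did not pass. Ifit2 was at 52.4, 40.1 and 41.0 CPM in the controls against 47.8, 93.9 and 68.6 CPM (log2 fold change 0.66 ± 0.23, adjusted p = 0.0602). Ifit3 was at 93.7, 78.4 and 64.1 CPM in the controls against 67.1, 147 and 128 CPM (log2 fold change 0.53 ± 0.27, adjusted p = 0.169), and Ifit3b at 38.5, 28.1 and 27.1 CPM in the controls against 23.5, 50.5 and 52.3 CPM (log2 fold change 0.43 ± 0.29, adjusted p = 0.295). In all 3 genes L-DL KD replicate 1 fell within or below the control range while the other two lay above it. Ifit3 and Ifit3b share 296 of their 150 nt windows of transcript, 18.5% of those in Ifit3 and 15.99% of those in Ifit3b, so that their counts are uncertain relative to each other. Adar, which edits adenosine to inosine in double-stranded RNA and is the most abundant of this class by CPM, was at 149, 144 and 155 CPM in the controls against 123, 155 and 139 CPM (log2 fold change -0.10 ± 0.09, adjusted p = 0.436). Its groups overlapped. Exons of Chrnb2 on the opposite strand cover 16.8% of its exonic length, and the sources used here do not say whether counting used strand.

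The OAS enzymes sense double-stranded RNA and make short oligoadenylates that activate RNase L. Oas2 (ENSMUSG00000032690) had the largest log2 fold change of all members, at 32.4, 25.6 and 23.4 CPM in the controls and 39.1, 93.3 and 87.3 CPM in the L-DL KD-labelled libraries (log2 fold change 1.43 ± 0.30, adjusted p = 0.00929), a ratio of group means of 2.70. L-DL KD replicates 2 and 3 were far above the rest and replicate 1 just above the highest control. Oasl1, which is known to restrain translation of Irf7, was at 8.14, 7.71 and 6.54 CPM in the controls against 12.9, 25.7 and 20.5 CPM (log2 fold change 1.40 ± 0.24, adjusted p = 0.00426), and here too the groups did not overlap. Oas3 was at 20.8, 16.3 and 13.0 CPM in the controls against 19.9, 43.3 and 34.2 CPM (log2 fold change 0.96 ± 0.28, adjusted p = 0.0343). Its L-DL KD replicate 1 lay just below the highest control. Oas1a was at 19.5, 15.2 and 11.7 CPM in the controls against 21.2, 36.4 and 32.5 CPM (log2 fold change 0.95 ± 0.24, adjusted p = 0.0191), with no overlap, but 32.4% of its 150 nt windows also occur in Oas1g. Oasl2, the most abundant by CPM, was at 141, 106 and 88.2 CPM in the controls against 102, 200.02 and 172 CPM (log2 fold change 0.50 ± 0.25, adjusted p = 0.172) and did not pass. Its control replicate 1 exceeded L-DL KD replicate 1.

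Isg15 is a ubiquitin-like protein that is attached to other proteins, and Usp18 removes it and also dampens the type I receptor. Isg15 (ENSMUSG00000035692), whose promoter stretch is printed above, was at 20.6, 19.1 and 12.8 CPM in the controls and 23.3, 40.4 and 28.3 CPM in the L-DL KD-labelled libraries (log2 fold change 0.81 ± 0.24, adjusted p = 0.0349). Usp18 was at 15.0, 14.0 and 12 CPM in the controls against 20.7, 43.9 and 31.6 CPM (log2 fold change 1.23 ± 0.25, adjusted p = 0.00831). Both genes had every L-DL KD-labelled library above every control. Trim25, a ubiquitin ligase that activates the sensor RIG-I, was at 36.3, 33.8 and 31.4 CPM in the controls against 52.6, 75.8 and 72.3 CPM (log2 fold change 0.98 ± 0.14, adjusted p = 0.00169), and Trim30a, a ligase of the same family, at 41.9, 39.2 and 33.7 CPM in the controls against 48.4, 77.7 and 78.8 CPM (log2 fold change 0.84 ± 0.18, adjusted p = 0.0111). Trim25 thus had one of the smallest standard errors of the genes that passed, and its lowest L-DL KD-labelled library was clear of the controls. The ADP-ribosyltransferase genes Parp14 and Parp9 and the ligase gene Dtx3l, whose product binds Parp9, lie together at chr16:35832874-35972605, and none passed. Parp14, the most abundant by CPM, was at 69.2, 52.2 and 52.1 CPM in the controls against 58.7, 100.4 and 90.7 CPM (log2 fold change 0.52 ± 0.20, adjusted p = 0.0809). Parp9 was at 32.8, 29.9 and 27.7 CPM in the controls against 31.2, 46.5 and 49.2 CPM (log2 fold change 0.49 ± 0.17, adjusted p = 0.0595) and Dtx3l at 39.9, 32.5 and 31.3 CPM in the controls against 27.4, 48.7 and 46.0 CPM (log2 fold change 0.23 ± 0.21, adjusted p = 0.433). In each of the 3, L-DL KD replicate 1 was below the highest control. Dtx3l and Parp9 overlap on opposite strands over 458 exonic nt.

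The sensors recognise viral or misplaced nucleic acid. Ifih1, which encodes the long double-stranded RNA sensor MDA5, was at 25.8, 24.0 and 20.003 CPM in the controls and 32.2, 46.9 and 40.1 CPM in the L-DL KD-labelled libraries (log2 fold change 0.77 ± 0.16, adjusted p = 0.00788). Dhx58, which encodes the MDA5 and RIG-I partner LGP2, was at 11.3, 9.53 and 8.06 CPM in the controls against 11.4, 20.019 and 16.9 CPM (log2 fold change 0.74 ± 0.22, adjusted p = 0.0388). Both had groups that did not overlap, although L-DL KD replicate 1 of Dhx58 exceeded control replicate 1 only slightly. Ddx58, which encodes RIG-I, was at 38.3, 33.5 and 31.4 CPM in the controls against 33.8, 58.5 and 53.5 CPM (log2 fold change 0.50 ± 0.19, adjusted p = 0.0856) and did not pass. Zbp1, a sensor of Z-form nucleic acid, was at 44.6, 31.5 and 28.3 CPM in the controls against 32.5, 53.1 and 50.1 CPM (log2 fold change 0.38 ± 0.22, adjusted p = 0.233) and did not pass. For both genes control replicate 1 exceeded L-DL KD replicate 1.

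Of the 47 members, 4 encode transcription factors of the response, and the one that passed was Irf7, which drives interferon alpha genes and is itself induced through type I signalling. Irf7 (ENSMUSG00000025498) was at 67.9, 51.6 and 36.6 CPM in the controls and 85.4, 132 and 115 CPM in the L-DL KD-labelled libraries (log2 fold change 1.09 ± 0.23, adjusted p = 0.00928), a ratio of group means of 2.13. The lowest L-DL KD-labelled library was above the highest control. Stat2 was at 126, 104 and 92.6 CPM in the controls against 91.6, 142 and 145 CPM (log2 fold change 0.23 ± 0.18, adjusted p = 0.378) and Irf9 at 61.4, 63.7 and 58.1 CPM in the controls against 53.2, 83.6 and 85.9 CPM (log2 fold change 0.28 ± 0.17, adjusted p = 0.242). These 2 subunits of the ISRE-binding complex had overlapping groups. Irf1, a factor induced strongly by interferon gamma, was at 57.4, 40.3 and 38.7 CPM in the controls against 32.3, 38.2 and 42.4 CPM (log2 fold change -0.27 ± 0.17, adjusted p = 0.256), with overlapping groups and the lowest value in L-DL KD replicate 1.

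Rsad2 encodes viperin, which makes a chain-terminating nucleotide, and Cmpk2 encodes a mitochondrial nucleotide kinase from the neighbouring locus (chr12:26442746-26479837). Rsad2 (ENSMUSG00000020641) was at 19.2, 15.9 and 13.0 CPM in the controls and 20.7, 53.0 and 36.5 CPM in the L-DL KD-labelled libraries (log2 fold change 1.20 ± 0.31, adjusted p = 0.022). Cmpk2, the more abundant by CPM, was at 42.3, 35.8 and 34 CPM in the controls against 39.0, 57.1 and 46.7 CPM (log2 fold change 0.35 ± 0.15, adjusted p = 0.11). Rsad2 had all 3 L-DL KD-labelled libraries above all controls, whereas for Cmpk2 control replicate 1 exceeded L-DL KD replicate 1.

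Of the membrane proteins and galectins, 3 were clearly above the controls in every L-DL KD-labelled library, replicate 1 included. Ifitm3 (ENSMUSG00000025492), which keeps viruses from fusing with endosomal membranes, was at 77.5, 58.7 and 55.4 CPM in the controls and 145, 160.4 and 149 CPM in the L-DL KD-labelled libraries (log2 fold change 1.247 ± 0.13, adjusted p = 0.00042). All 3 L-DL KD-labelled libraries were close to each other and well above the controls. Lgals9, which encodes galectin-9, was at 37.7, 37.2 and 28.4 CPM in the controls against 65.2, 68.2 and 69.4 CPM (log2 fold change 0.97 ± 0.11, adjusted p = 0.00075), and Lgals3bp, the member with the highest CPM, at 407, 376 and 351 CPM in the controls against 537, 703 and 694 CPM (log2 fold change 0.77 ± 0.11, adjusted p = 0.0021). Neither gene had overlapping groups, and in both the lowest L-DL KD-labelled library was clear of the highest control. Bst2, which encodes tetherin, a protein that holds budding virus at the cell surface, was at 76.3, 56.0 and 50.9 CPM in the controls against 67.8, 88.5 and 77.8 CPM (log2 fold change 0.35 ± 0.16, adjusted p = 0.131). Its control replicate 1 lay above L-DL KD replicate 1. Per kb of exonic length, Lgals3bp was also the highest member, at 133 CPM per kb in the controls, followed by Ifitm3 at 94.2, Igtp at 70.9, Ifi27 at 70.1 and Bst2 at 67.6 CPM per kb. The lowest were Oas3 at 2.36, Mx2 at 2.40 and Mx1 at 2.54 CPM per kb. In the L-DL KD-labelled libraries, Lgals3bp and Ifitm3 stood at 226 and 224 CPM per kb.

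**Figure D2:**
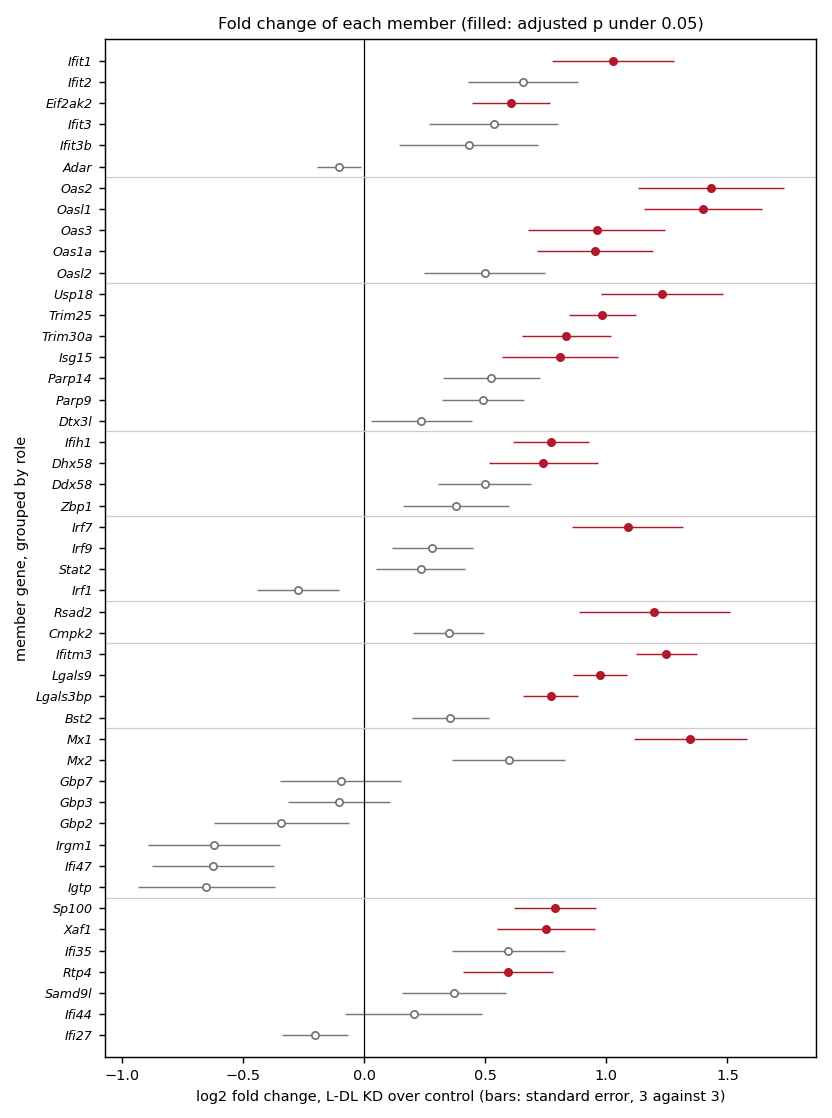
Log2 fold change of each of the 47 members, L-DL KD-labelled libraries over controls, with the standard error from edgeR as bars; filled points passed an adjusted p of 0.05. All 21 filled points lie right of 0, and 9 open points lie left of it, 6 of them among the large GTPases.

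The large GTPases split. Mx1, whose product blocks influenza replication in mice that carry an intact gene, was at 10.4, 10.7 and 7.68 CPM in the controls and 17.1, 30.8 and 25.4 CPM in the L-DL KD-labelled libraries (log2 fold change 1.35 ± 0.23, adjusted p = 0.00399), with no overlap. Its neighbour Mx2, annotated as a polymorphic pseudogene, was at 9.18, 8.06 and 8.83 CPM in the controls against 8.59, 16.5 and 14.3 CPM (log2 fold change 0.60 ± 0.23, adjusted p = 0.0886) and did not pass. The other 6 members of the class, 3 GBP genes and 3 IRG genes, had log2 fold changes below 0 and none passed. Irgm1 (ENSMUSG00000046879), an IRG that regulates the others, was the most abundant of the class by CPM, at 247, 180.3 and 170.0 CPM in the controls against 75.2, 151 and 163 CPM (log2 fold change -0.62 ± 0.27, adjusted p = 0.122). Igtp, also called Irgm3, was at 173, 129 and 128 CPM in the controls against 50.4, 103 and 120.0 CPM (log2 fold change -0.65 ± 0.28, adjusted p = 0.12), and Ifi47 was at 45.7, 35.9 and 31.2 CPM in the controls against 15.2, 27.6 and 30.5 CPM (log2 fold change -0.62 ± 0.25, adjusted p = 0.097). For these 3 IRG genes every L-DL KD-labelled library was below every control, and L-DL KD replicate 1 was by far the lowest. The GBP genes, which lie together at chr3:142530342-142638008, showed no such separation. Gbp2 was at 203, 103 and 111 CPM in the controls against 79.3, 135 and 115 CPM (log2 fold change -0.34 ± 0.28, adjusted p = 0.392), and control replicate 1 alone was far above the rest. Gbp3 was at 101, 79.3 and 77.0 CPM in the controls against 53.5, 89.2 and 96.8 CPM (log2 fold change -0.10 ± 0.21, adjusted p = 0.749) and Gbp7 at 76.1, 56.4 and 53.7 CPM in the controls against 36.4, 62.3 and 75.5 CPM (log2 fold change -0.10 ± 0.25, adjusted p = 0.803). Both had overlapping groups with L-DL KD replicate 1 lowest. Of the 150 nt windows of Gbp7, 8.93% also occur in Gm43802, which overlaps it. Exons of Irgm2 on the same strand cover 8.0% of the exonic length of Igtp.

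**Figure D3:**
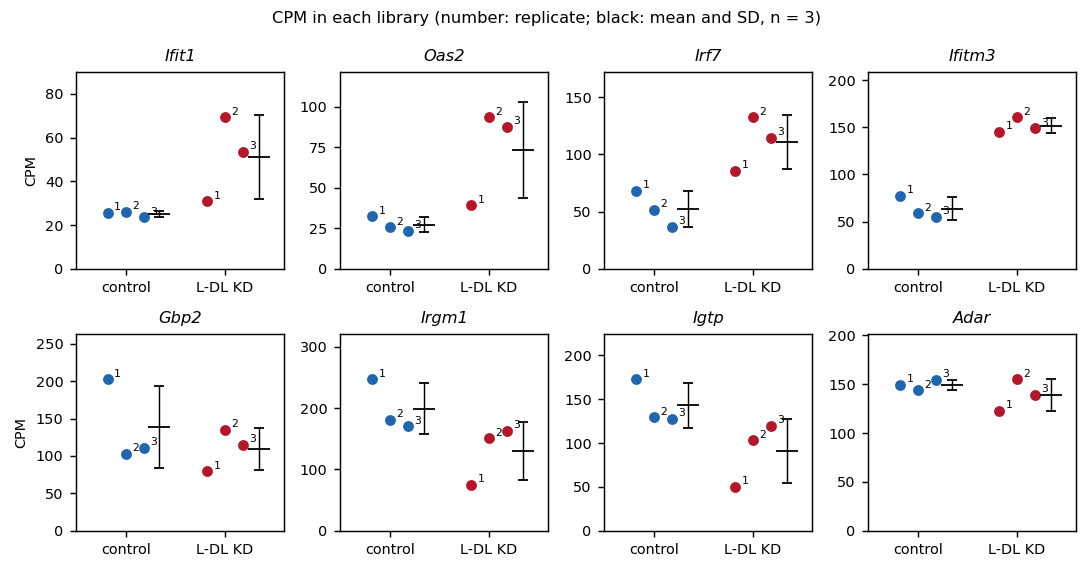
CPM of 8 members in each library, numbered by replicate, with the mean and SD of each group (n = 3) in black; every y axis starts at 0. Irf7 and Ifitm3 lie apart between the groups, Ifit1 and Oas2 lie apart with replicate 1 of the L-DL KD-labelled libraries close to the controls, Irgm1 and Igtp are lower in all 3 of those libraries, and Adar overlaps.

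All 6 had negative values, whereas 38 of the other 41 members had positive ones. The GBP and IRG genes of the pathway list were therefore set beside them, a grouping chosen after the values were seen and given with no test. Of 15 GBP and IRG genes in both lists, 14 had a log2 fold change below 0 (median -0.65) and 11 had all 3 L-DL KD-labelled libraries below all controls, against 23.4% of all genes. Of them, 5, all from the pathway list, were called lower, against 15.0% of all genes. Sharing of transcript sequence was examined for members alone, so how far these 5 share sequence with related genes is not known here. Gbp8 was at 31.2, 15.5 and 17.7 CPM in the controls against 3.25, 7.01 and 7.63 CPM (log2 fold change -1.85 ± 0.36, adjusted p = 0.00706), and Tgtp1, an IRG gene, at 17.6, 12 and 16.4 CPM in the controls against 3.91, 5.38 and 5.90 CPM (log2 fold change -1.60 ± 0.21, adjusted p = 0.00132). Both lay far below the controls in every L-DL KD-labelled library. Gbp4 (log2 fold change -1.19 ± 0.25, adjusted p = 0.00896), Tgtp2 (log2 fold change -1.06 ± 0.28, adjusted p = 0.0231) and Gbp5 (log2 fold change -0.84 ± 0.26, adjusted p = 0.0441) were also lower. The call of Tgtp2 ended without control replicate 1 or 3. That of Gbp5 ended with the replicate block and without control replicate 1 or 2 or L-DL KD replicate 1 or 2. Irgm2 (log2 fold change -0.75 ± 0.29, adjusted p = 0.085), Iigp1 (log2 fold change -0.73 ± 0.30, adjusted p = 0.105) and Gbp6 (log2 fold change -0.54 ± 0.20, adjusted p = 0.071) had negative values without passing, and Gbp9 was the exception with a positive one (log2 fold change 0.21 ± 0.20, adjusted p = 0.468). The 41 members outside these families had 21 called higher (51.2%), against 15.6% of all genes, and a median log2 fold change of 0.61.

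**Figure D4:**
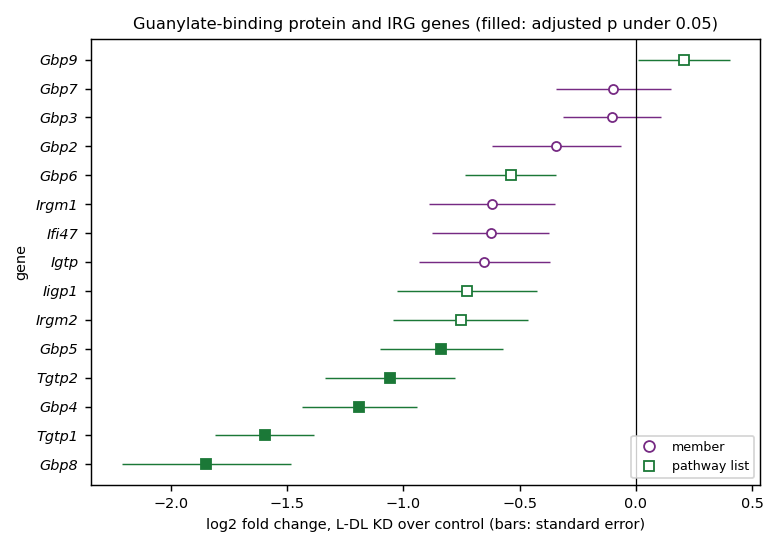
Log2 fold change of 15 guanylate-binding protein and IRG genes, with standard errors from edgeR as bars; circles are members and squares are genes of the pathway list, and filled symbols passed an adjusted p of 0.05. Values run from -1.85 for Gbp8 to 0.21 for Gbp9, and all but Gbp9 lie below 0.

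The negative values of the GBP and IRG members rested partly on 2 libraries. Their median log2 fold change was -0.48 with all 6 libraries, -0.25 without L-DL KD replicate 1 and -0.21 without control replicate 1. The values of Gbp2, Gbp3 and Gbp7 turned positive without control replicate 1, and those of Gbp3 and Gbp7 also without L-DL KD replicate 1. T cells are a source of interferon gamma, and all 8 of their markers had a log2 fold change below 0. Lck and Trac were called lower, and the 8 markers summed to 47 to 74 CPM in the controls and 28 to 47 CPM in the L-DL KD-labelled libraries. Ifng itself had 6, 13 and 5 counts in the controls and 0, 1 and 1 counts in the L-DL KD-labelled libraries, too few for the filter, so it was not tested. The part of T cells or interferon gamma in the level of these members was not tested.

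Of the members, 7 carried other or less defined functions. Sp100, a component of nuclear PML bodies, was at 24.7, 25.9 and 22.4 CPM in the controls and 30.9, 46.4 and 48.8 CPM in the L-DL KD-labelled libraries (log2 fold change 0.79 ± 0.17, adjusted p = 0.0102). Xaf1, which antagonises the apoptosis inhibitor XIAP, was at 34.1, 30.6 and 28.3 CPM in the controls against 34.9, 60.6 and 61.0 CPM (log2 fold change 0.75 ± 0.20, adjusted p = 0.0256). Both had separate groups, with L-DL KD replicate 1 nearest to the controls. Rtp4, a chaperone of taste and opioid receptors, was at 30.8, 27.0 and 25.9 CPM in the controls against 29.6, 49.5 and 47.3 CPM (log2 fold change 0.59 ± 0.19, adjusted p = 0.0441). It passed although L-DL KD replicate 1 fell below control replicate 1, and 13.9% of its exonic length is overlapped by Gm45338. Ifi35 was at 9.37, 8.53 and 7.18 CPM in the controls against 8.43, 14.5 and 15.0 CPM (log2 fold change 0.59 ± 0.23, adjusted p = 0.0894), Samd9l at 29.4, 27.2 and 22.0 CPM in the controls against 23.0, 41.4 and 37.2 CPM (log2 fold change 0.37 ± 0.21, adjusted p = 0.23) and Ifi44 at 23.1, 16.4 and 14.6 CPM in the controls against 12.7, 27.5 and 22.1 CPM (log2 fold change 0.20 ± 0.28, adjusted p = 0.625). These 3 had overlapping groups and did not pass, with L-DL KD replicate 1 well below the other two. Ifi27, a mitochondrial protein gene and the most abundant of this class by CPM, was at 104, 92.3 and 113 CPM in the controls against 109, 80.7 and 78.0 CPM (log2 fold change -0.20 ± 0.14, adjusted p = 0.302). It was the exception in which L-DL KD replicate 1 was the highest of its group.

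Microglia, a main responder to interferon in brain, were considered beside the members through a list of 12 markers, all of which were higher (log2 fold changes from 0.57 to 1.58). Their summed level was 1440 to 1799 CPM in the controls and 3018 to 3931 CPM in the L-DL KD-labelled libraries, a ratio of group means of 2.09. The corresponding ratio was 1.32 for the summed level of all 47 members. For the 41 outside the GBP and IRG families, a split made after the values were seen, it was 1.51. The marker list and these 41 members did not keep 1 proportion between libraries. The median log2 ratio to the control mean in L-DL KD replicates 1, 2 and 3 was 0.80, 1.06 and 1.17 for the microglial markers but 0.15, 0.89 and 0.74 for the 41 members. For all 47 members it was 0.085, 0.82 and 0.70. Border and blood macrophage markers summed to 42 to 47 CPM in the controls and 47 to 104 CPM in the L-DL KD-labelled libraries, with Mrc1 and Cd163 called higher among 6 tested of 7. Endothelial markers summed to 289 to 328 CPM in the controls and 403 to 499 CPM in the L-DL KD-labelled libraries, with 5 of 7 higher. Neuronal markers summed to 10451 to 11016 CPM in the controls and 6098 to 7377 CPM in the L-DL KD-labelled libraries. Of 7 astrocyte markers 1 was higher and 3 were lower, of 6 oligodendrocyte markers 1 was higher, and none of the 6 markers of B and plasma cells or the 6 of choroid plexus passed. The neutrophil markers were at or near 0, from 1.24 to 3.57 CPM summed over 6 genes. The part of these shifts in the level of the members was not tested.

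**Figure D5:**
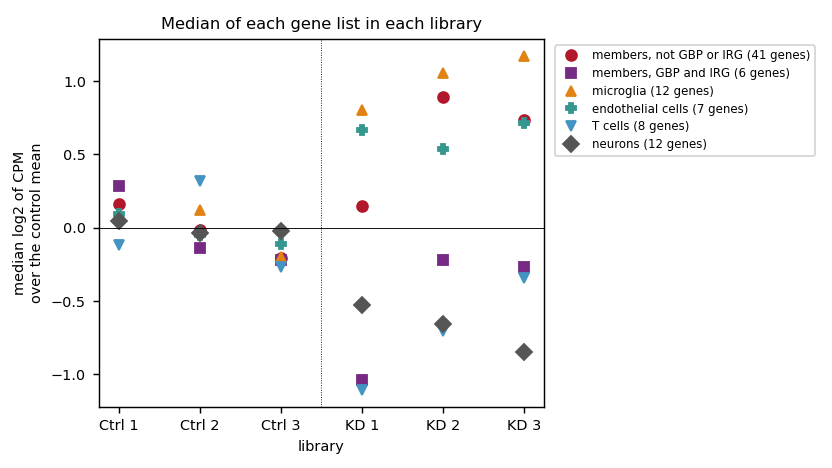
Median log2 of CPM over the control mean (0.5 CPM added) in each library for 2 groups of members and for 4 cell type marker lists; the number of genes is in the legend. The 41 members outside the GBP and IRG families were at 0.15 in L-DL KD replicate 1 and at 0.89 and 0.74 in replicates 2 and 3, whereas the microglial markers were at 0.80, 1.06 and 1.17. The 2 groups of members were split after the values were seen.

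Beside the members, 80 further genes of the pathway were listed, and 70 passed the filter. Of these, 30 were called higher and 5 lower, against 15.6% and 15.0% of all genes, and both counts changed with the library left out. None of the 10 interferon genes passed the filter. Besides Ifng, a single count of Ifnb1 in L-DL KD replicate 1 was the only one among the 9 others, so expression of these 9 was not detectable at this depth. Of 6 receptor subunits, 3 were higher. Ifngr1, the ligand-binding chain for interferon gamma, was at 32.5, 35.8 and 31.4 CPM in the controls against 62.9, 62.0 and 78.6 CPM (log2 fold change 1.03 ± 0.11, adjusted p = 0.00055), and Il10rb, a chain shared with interleukin-10 and interferon lambda, at 11.7, 9.71 and 9.14 CPM in the controls against 14.5, 14.5 and 19.8 CPM (log2 fold change 0.68 ± 0.17, adjusted p = 0.0195). Both had separate groups, and for both L-DL KD replicate 3 was highest. Among the 3 Jak kinases listed, Tyk2 alone passed, at 42.3, 46.0 and 44.1 CPM in the controls against 50.2, 52.1 and 56.1 CPM (log2 fold change 0.26 ± 0.08, adjusted p = 0.0348). Its groups did not overlap, but its call ended in DESeq2, with no filter on low counts and with the replicate block. It also ended when any library but L-DL KD replicate 1 was left out.

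Of 13 genes that lead to interferon production, 9 were higher and none lower, against 15.6% and 15.0% of all genes. Tlr9, an endosomal DNA receptor, was at 11.7, 8.41 and 7.37 CPM in the controls against 21.2, 25.2 and 24.9 CPM (log2 fold change 1.37 ± 0.18, adjusted p = 0.00134), and Tlr7, an endosomal RNA receptor, at 21.6, 19.7 and 15.4 CPM in the controls against 26.3, 49.0 and 46.1 CPM (log2 fold change 1.095 ± 0.24, adjusted p = 0.0104). Both lay above the controls in every L-DL KD-labelled library, and Tlr7 shared the low value of L-DL KD replicate 1 with the members. Of 6 negative regulators, 2 were higher. Socs3, an inhibitor of Jak kinases, was at 20.2, 21.2 and 12.9 CPM in the controls against 45.0, 29.9 and 66.8 CPM (log2 fold change 1.38 ± 0.30, adjusted p = 0.01), and the phosphatase gene Ptpn6 at 37.7, 28.3 and 31.9 CPM in the controls against 47.4, 59.6 and 62.5 CPM (log2 fold change 0.79 ± 0.14, adjusted p = 0.00412). Socs3 was unlike the members in that its lowest L-DL KD-labelled library was replicate 2. Of the 41 other interferon-stimulated genes, 15 were higher and 5 lower, and the 5 were all GBP or IRG genes. Among the 32 outside these families, 15 were higher and none lower, with a median log2 fold change of 0.58.

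Splicing of the members was measured in the same libraries as counts across junctions that include or skip a segment, which the choice of members did not use. The table listed 125 events in 34 members among 40961 events, and 69 events in 24 members had enough counts to be tested. None of the 69 passed an adjusted p of 0.05 in edgeR's quasi-likelihood test, against 0.255% of the 18829 events tested. At an unadjusted p under 0.05 there were 3, against 13.3% of all tested events. limma on the log2 ratio of both forms gave none at the adjusted threshold, where it called none of all 18829 events either, and 4 at the unadjusted one, against 12.6% of all events. The 3 events were chosen after their values were seen. The share of inclusion (PSI) of a Stat2 exon at chr10:128277644-128277733 (GRCm38, plus strand) was 0.986, 1 and 1 in the 3 control libraries of the table and 0.784, 0.980 and 0.915 in the 3 L-DL KD-labelled ones (adjusted p = 0.243). Another entry of the same exon, with too few skipping counts to be tested, was at 1, 1 and 1 against 1, 1 and 0.973. An Adar exon at chr3:89734842-89736273 was included at 1, 1 and 1 and at 1, 0.962 and 0.942 (adjusted p = 0.288), and an intron of Zbp1 within chr2:173210536-173212266 was retained at 0.0872, 0.120 and 0.114 and at 0.233, 0.256 and 0.177 (adjusted p = 0.352). Among the 3 events, the groups of Stat2 and Zbp1 did not overlap, and those of Adar did. The junction table numbers its libraries without naming mice, so these values cannot be set against the expression of single mice.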

How the data were processed

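Total RNA of hippocampus was made into 6 libraries with the NEBNext Ultra RNA kit and sequenced. Raw counts per Ensembl gene were deposited by the authors without normalization, next to the junction-count output of rMATS. Its deposited p-value, FDR and inclusion difference columns hold the authors' own comparison and were not used. The submitters' processing notes name HISAT2 (version 2.1.0), HTSeq (version 0.6.1), Bowtie (version 1.1.2) and the build mm10, without saying which step used which. The strand setting of the counting is not given in the sources used here. No count column belonged to other samples.

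Members, roles, pathway genes and cell type markers were chosen with earlier results of these data known. A gene needed 10 counts or more in 3 or more libraries. The quasi-likelihood test of edgeR (version 4.0.16, R version 4.3.3) was run after TMM scaling, with no covariate, and p-values were adjusted by the Benjamini-Hochberg method over all 17621 tested genes at a threshold of 0.05. Every member was counted. Single values were given for the 3 members of each role with the largest absolute change among those that passed, for the member with the highest mean CPM, for members that did not pass or had a negative change, and for the 2 largest changes that passed in each role of the pathway list. The other GBP and IRG genes and the remaining members named were chosen after their values were seen. One gene of the pathway list enters the counts but is not reported here. Junction counts were tested as 12 columns, in a model with terms for library, form and the change of form between groups, where events averaged 20 or more counts in a library and 1 or more of each form. PSI was computed from junction counts divided by the effective lengths in the table.

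Alternatives were DESeq2 (version 1.42.0), limma-voom (version 3.58.1), library size scaling, looser and stricter filters, the replicate number as a block, and each library left out in turn. The models were tested on simulated data. Promoters and transcripts came from RefSeq (GRCm38.p6) and GENCODE M21, and tables were handled in Python (version 3.11.15) with pandas (version 2.3.3). Groups came from the sample titles and genotypes, and 3 libraries per group limit every test. In the junction table, SAMPLE_1 was taken as L-DL KD and SAMPLE_2 as control, following the study's methods.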

Additional observations from a re-analysis of the deposited data

How the results depend on the processing

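With 3 libraries per group, the number of members called higher changed most with the library left out. It ranged from 11 to 37, the number called lower from 0 to 1 and their median log2 fold change from 0.41 to 0.80, while the pathway genes called higher ranged from 16 to 43 and those called lower from 3 to 6. The lowest counts of genes called higher came without control replicate 3 and the highest without L-DL KD replicate 1, when Ifi27 was the member called lower. DESeq2 called 1 member lower (Ifi47), and with no filter on low counts 3 were lower (Igtp, Irgm1 and Ifi47) and 10 pathway genes were; the cause was not tested. The other settings gave 17 to 25 members higher, each of them with a positive median log2 fold change. With 1 library left out at a time, the log2 fold change of Gbp2 ranged from -0.52 to 0.031, that of Gbp3 from -0.26 to 0.12, that of Gbp7 from -0.33 to 0.15 and that of Ifi44 from -0.042 to 0.46. The 3 GBP genes turned positive without control replicate 1, Gbp3 and Gbp7 also without L-DL KD replicate 1, and Ifi44 turned negative without L-DL KD replicate 2. Counted on the promoter's own strand alone, 9 of 45 member windows (20%) held an ISRE core. Same-numbered samples did not deviate together (correlations 0.05, 0.13 and -0.11), so no pairing by number was detected, though 3 such values cannot exclude one. With the replicate block, 17 members were higher, 0 lower, 27 pathway genes higher and 4 lower. Of the 15 named pathway genes that were called, 11 kept their call in every setting, and Tyk2, Gbp5, Il10rb and Tgtp2 lost it in at least 1. No member splicing event was called under any setting, but these settings called 0 to 52 of all events tested, so this says nothing about stability.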

Other observations

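Of the 32 other interferon-stimulated genes of the pathway list outside the GBP and IRG families, 15 were called higher and 17 were not called, 6 of these with a negative log2 fold change. Among all tested genes, 15.6% were called higher. The 4 named here were chosen after their values were seen. Ifi27l2a was at 15.8, 13.0 and 9.53 CPM in the controls against 29.5, 33.6 and 29.6 CPM in the L-DL KD-labelled libraries (log2 fold change 1.28 ± 0.18, adjusted p = 0.0016). Ifi204, which encodes a DNA-binding protein of the PYHIN family, was at 24.8, 22.9 and 15.1 CPM in the controls against 33.7, 56.7 and 57.0 CPM (log2 fold change 1.23 ± 0.24, adjusted p = 0.00711), and Slfn5 at 35.6, 27.8 and 23.9 CPM in the controls against 47.2, 67.7 and 72.9 CPM (log2 fold change 1.103 ± 0.19, adjusted p = 0.00414). In both, L-DL KD replicate 1 was nearest to the controls. Cd274, which encodes the checkpoint ligand PD-L1, was at 70.6, 42.4 and 47.6 CPM in the controls against 22.6, 36.3 and 39.3 CPM (log2 fold change -0.71 ± 0.24, adjusted p = 0.059), below all controls in every L-DL KD-labelled library without passing the test.

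The 47 members lay on 15 chromosomes, and 18 of them lay in 7 clusters with gaps of at most 100 kb. In 4 clusters neighbours differed in whether they passed. Ifit1 passed and its 3 neighbours did not, Oasl1 passed and Oasl2 did not, Mx1 passed and Mx2 did not, and Rsad2 passed and Cmpk2 did not. In the other 3 they did not differ, since Oas2 and Oas3 both passed and no gene passed among Parp14, Dtx3l and Parp9 or among Gbp2, Gbp3 and Gbp7. These differences between neighbours were not tested.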
